A study of Homo sapiens with 6 samples.

Results

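The genes described are 33 enzymes and regulators of cholesterol and fatty acid synthesis that are known targets or controllers of the sterol regulatory element-binding proteins (SREBPs). They were chosen by name, not by a threshold on measured values, though with earlier results of these data known. Of them, 31 were matched to a row of the 19361 in the deposited table. FDFT1, which makes squalene, and HSD17B7, a sterol reductase, were not analysed here. The arrays carry RNA of UMUC-14, a cell line grown from a human bladder cancer, taken 40 h after transfection, in 2 groups of 3. The siFGFR3 group received an siRNA against FGFR3, a fibroblast growth factor receptor, and each of its arrays holds a different one, siFGFR3#35, siFGFR3#36 or siFGFR3#3. The lipofectamine group received the transfection reagent (LipofectaminRNAimax, as the labels spell it) alone. All cells grew in DMEM with fetal serum. No control siRNA is named in the labels, and carrying any siRNA cannot be told apart from losing FGFR3 in these comparisons. They also do not say whether arrays of a group came from separate cultures, so p-values measure the spread between these arrays, which may be technical.

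Cells make cholesterol from acetyl-CoA through mevalonate, farnesyl diphosphate and squalene, and fatty acids from the same acetyl-CoA through malonyl-CoA. SREBPs are transcription factors held in the endoplasmic reticulum by SCAP and the INSIG proteins while sterol is plentiful. When sterol runs low, SCAP carries them to the Golgi, where proteases release the active part. SREBF2 mainly drives the sterol enzymes and SREBF1 mainly the fatty acid enzymes. Serum supplies cultured cells with lipoprotein cholesterol, so these genes usually stand between full activity and full repression. The members were ordered by role: 7 enzymes from acetoacetyl-CoA to farnesyl diphosphate and 11 from squalene to cholesterol (together the sterol branch), 9 genes of fatty acid and glycerolipid synthesis (the fatty acid branch), and 6 regulators including the sterol carrier STARD4.

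The promoters of the 4 members with the smallest adjusted p among those with an entry in the RefSeq promoter table (GRCh38.p14) are shown because these genes moved most clearly in the comparison below. EBP, FDPS and NSDHL were lower in siFGFR3 cells and TM7SF2 was higher. Each window runs 5′ to 3′ from 250 bases before the transcription start to 50 bases after it. Capitals mark the letters CCAAT, which the factor NF-Y binds, and GGGCGG, which Sp1 binds, read on either strand.
EBP (chrX:48521558-48521857, plus strand): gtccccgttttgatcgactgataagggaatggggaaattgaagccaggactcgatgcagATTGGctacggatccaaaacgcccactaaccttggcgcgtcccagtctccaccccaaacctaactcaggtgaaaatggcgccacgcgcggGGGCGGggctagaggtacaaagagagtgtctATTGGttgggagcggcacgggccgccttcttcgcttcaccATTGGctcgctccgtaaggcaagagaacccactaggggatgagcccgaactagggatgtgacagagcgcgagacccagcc
FDPS (chr1:155308616-155308915, plus strand): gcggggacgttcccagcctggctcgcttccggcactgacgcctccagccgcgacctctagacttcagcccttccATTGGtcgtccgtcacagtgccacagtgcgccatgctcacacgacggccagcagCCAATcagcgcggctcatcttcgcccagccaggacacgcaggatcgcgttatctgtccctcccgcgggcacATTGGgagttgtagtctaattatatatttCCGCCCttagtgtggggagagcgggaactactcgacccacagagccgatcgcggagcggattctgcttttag
NSDHL (chrX:152830813-152831112, plus strand): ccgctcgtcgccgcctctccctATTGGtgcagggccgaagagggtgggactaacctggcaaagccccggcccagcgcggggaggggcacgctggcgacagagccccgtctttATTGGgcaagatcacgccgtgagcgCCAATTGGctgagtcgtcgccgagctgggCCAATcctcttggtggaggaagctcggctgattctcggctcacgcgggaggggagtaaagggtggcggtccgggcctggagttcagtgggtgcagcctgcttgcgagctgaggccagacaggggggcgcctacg
TM7SF2 (chr11:65111622-65111921, plus strand): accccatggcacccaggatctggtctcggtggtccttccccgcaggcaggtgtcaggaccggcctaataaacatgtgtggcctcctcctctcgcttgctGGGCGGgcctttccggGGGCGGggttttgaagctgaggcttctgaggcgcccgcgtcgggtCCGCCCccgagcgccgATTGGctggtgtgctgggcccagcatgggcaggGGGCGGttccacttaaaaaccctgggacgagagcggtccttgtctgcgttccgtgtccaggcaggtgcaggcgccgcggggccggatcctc

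NF-Y and Sp1 are known to act beside SREBPs at lipid synthesis promoters. Of the 31 members with a row, 28 had at least 1 window in the table, and ACAT2, SQLE and FASN had none. CCAAT was present for 20 of the 28 genes (71.4%), against 39.7% of the 27305 genes in the table, with a gene counted if any of its listed windows held the letters. It was present for 12 of 14 sterol branch genes (85.7%), 5 of 8 fatty acid branch genes (62.5%) and 3 of 6 regulators. NSDHL held CCAAT 5 times, of which 2 overlap on opposite strands, and no GGGCGG. EBP and FDPS held CCAAT 3 times each and TM7SF2 held it 1 time. GGGCGG was present for 27 of the 28 members (96.4%), against 48.3% of all genes in the table and 74.4% of the tested rows with an entry. The letters TCACNCCAC, a form of the sterol response element, were found for 1 of the 28 members, SREBF2, against 1.39% of all genes. These shares were not tested, and a match in a window is a description of its letters only.

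The deposited values are log2 expression levels. FGFR3, the target, was at 7.47 with siFGFR3#35, 7.14 with siFGFR3#36 and 8.45 with siFGFR3#3, against 8.70, 8.75 and 8.74 in the lipofectamine arrays. Its signal was thus 41.7%, 33.3% and 82.2% of the lipofectamine mean, and siFGFR3#3 stood well above the other siRNAs. The change of −1.04 (SE 0.30, adjusted p = 0.0271 in limma) was lost without any 1 lipofectamine array (adjusted p = 0.0732 to 0.0817) and without siFGFR3#35 (0.0703). A row here was tested if its mean over the 6 arrays was above 3.89, which left out the dimmest 30%. Of the 13552 rows tested, 24.6% were lower and 20.6% higher in siFGFR3 cells at an adjusted p under 0.05 (limma, Benjamini-Hochberg). With each array centred on its median the median over all rows was −0.11 in place of −0.04 and 35% in place of 45.6% of the called rows were higher. Epithelial markers of the cell type were present, and of the 11 tested 6 rose and 2 fell. GATA3 was at 9.61 ± 0.14 in siFGFR3 cells and 8.82 ± 0.03 in lipofectamine cells (SD, n = 3 each). The 2 that fell were EPCAM, at 10.79 ± 0.04 and 11.29 ± 0.10, and KRT5, at 6.39 ± 0.20 and 7.37 ± 0.02. The leukocyte marker PTPRC, a dim row that was not tested, was at 2.12 ± 0.02 and 2.15 ± 0.09. CD68, the highest leukocyte row, was at 5.19 ± 0.25 and 5.39 ± 0.28. Of 5 leukocyte, 3 fibroblast and 1 endothelial rows tested, 2, 1 and 0 fell and 0, 1 and 0 rose. The lists of 8 leukocyte, 7 fibroblast and 5 endothelial markers had summed linear signals of 141 to 150, 130 to 153 and 49 to 53 in siFGFR3 arrays and 159 to 180, 120 to 132 and 55 to 56 in lipofectamine arrays, of which 7, 7 and 5 had a row, against 26032 to 26497 and 23611 to 24505 for 11 epithelial markers.

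Genes of sterol and fatty acid synthesis were mostly lower in siFGFR3 cells, by modest amounts. Of the 30 members tested, 15 fell, 1 rose and 14 did not pass, and those that fell were at 61.5% to 81.3% of their lipofectamine level. In the sterol branch 10 of 16 fell (62.5%) and 1 rose, with a median change of −0.39. In the fatty acid branch 4 of 8 fell and 0 rose in limma, also 4 and 0 at an unadjusted p under 0.05, with a median change of −0.31. Among all rows tested 24.6% fell and the median change was −0.04. At an unadjusted p under 0.05, 4055 of the 13552 rows tested were lower and 3332 higher in limma. Of the regulators 1 of 6 fell, the carrier STARD4, and 0 rose (1 and 0 at an unadjusted p under 0.05 in limma), and their median change was −0.06. The siFGFR3 arrays lay all below the lipofectamine arrays for 16 of the 30 members and all above for 3, against 33.9% and 26.9% of all rows tested. The difference between the branches was not tested. The tested members varied more between siFGFR3 arrays than between lipofectamine arrays, with median SDs of 0.181 and 0.0488, against 0.129 and 0.0536 over all rows tested. In bulk RNA, fewer cells that use a gene and less of its RNA per cell cannot be told apart. Without lipofectamine replicate 1, 2 or 3 the sterol branch had 6, 6 and 7 members lower, and the fatty acid branch 3, 3 and 4, while the rows lower in all numbered 1964, 1988 and 1978 in place of 3329.

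**Figure D1:**
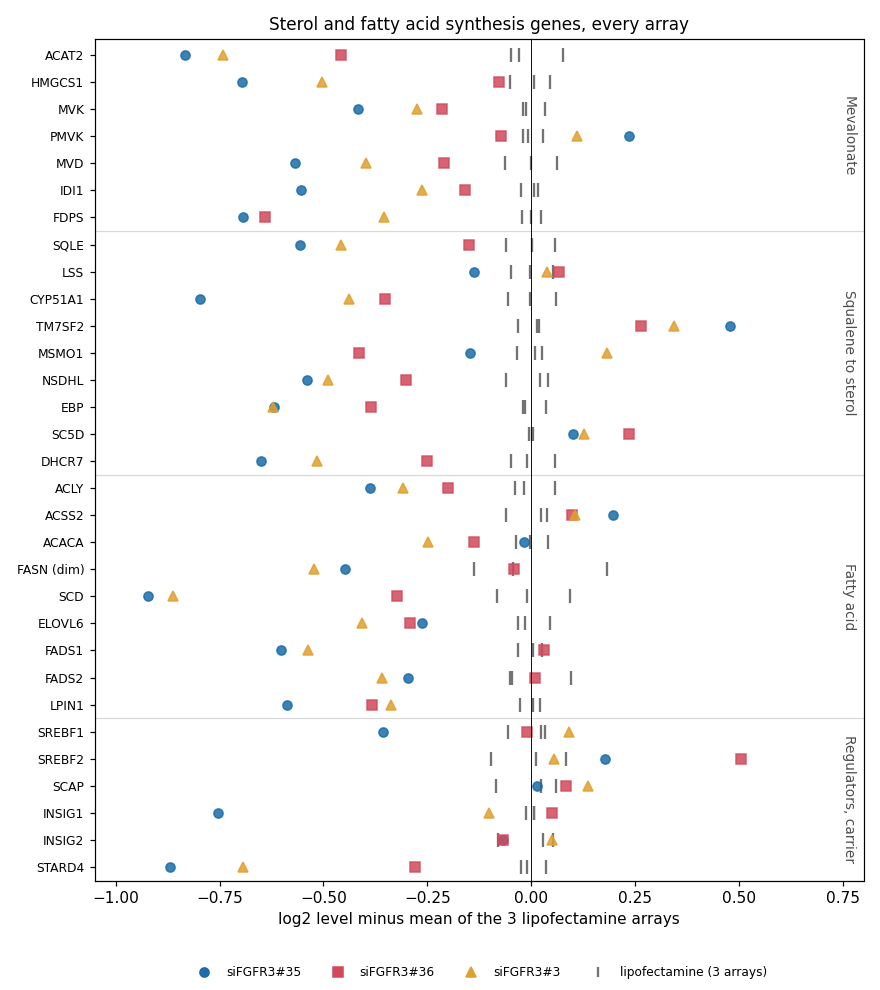
Each row is a member gene and each mark an array, placed by its log2 level minus the mean of the 3 lipofectamine arrays (x axis), with coloured marks for the siFGFR3 siRNAs and grey ticks for lipofectamine. Most sterol and fatty acid genes lie left of 0 with every siRNA, TM7SF2 lies right of 0, and the siFGFR3#36 squares are nearest to 0 for many genes. FASN, marked dim, was not tested.

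In the mevalonate segment 5 of 7 enzymes fell and 0 rose in limma (6 and 0 at an unadjusted p under 0.05), and the segment's median was −0.39. Among all rows tested 24.6% fell, and 4055 of 13552 were lower at an unadjusted p under 0.05. ACAT2 joins acetyl-CoA units in the cytosol at the entry of the pathway. It was at 9.79, 10.17 and 9.89 with siFGFR3#35, siFGFR3#36 and siFGFR3#3, against 10.70, 10.58 and 10.60 in lipofectamine arrays. All siFGFR3 arrays were below all lipofectamine arrays, and the change was −0.68 (SE 0.10, adjusted p = 0.00243 in limma). FDPS makes farnesyl diphosphate, from which sterols and prenyl groups branch. It was at 9.72, 9.77 and 10.05 with the siRNAs in the same order, against 10.41, 10.39 and 10.43 in lipofectamine arrays. The groups did not overlap, and siFGFR3#3 lay nearest to the lipofectamine arrays; the change was −0.56 (SE 0.09, adjusted p = 0.00349 in limma). The mevalonate kinase MVK (−0.30), the decarboxylase MVD (−0.39) and the isomerase IDI1 (−0.32) also fell, with adjusted p of 0.0137, 0.0181 and 0.0372 in limma. MVK and IDI1 did not pass without any 1 lipofectamine array, and MVD did not pass without lipofectamine replicate 1 or 2 (adjusted p up to 0.0631, 0.11 and 0.0727). IDI1 also did not pass without siFGFR3#3.

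HMGCS1, the synthase that commits acetyl-CoA to this pathway, averaged 8.43 ± 0.32 in siFGFR3 cells and 8.86 ± 0.05 in lipofectamine cells (SD, n = 3 each), a difference of −0.43 that did not pass (adjusted p = 0.0504 in limma). It lay below the lipofectamine arrays with every siRNA, but by 0.70 and 0.50 with siFGFR3#35 and siFGFR3#3 and by 0.08 with siFGFR3#36. Its adjusted p was 0.000817 without siFGFR3#36 and ranged from 3.72e-06 to 0.137 over all alternatives. PMVK, the kinase that follows MVK, was at 8.26 ± 0.16 in siFGFR3 cells and 8.17 ± 0.03 in lipofectamine cells, with overlapping arrays and an adjusted p of 0.409 in limma.

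From squalene to cholesterol 5 of 9 tested enzymes fell and 1 rose, where 24.6% and 20.6% of all rows tested fell and rose. The segment's median was −0.39. EBP, the isomerase of the sterol ring's double bond, had the smallest adjusted p of all members. It was at 9.73, 9.96 and 9.72 with siFGFR3#35, siFGFR3#36 and siFGFR3#3, against 10.33, 10.38 and 10.33 in lipofectamine arrays. The groups were well apart, and the change was −0.54 (SE 0.07, adjusted p = 0.00201 in limma). NSDHL, a dehydrogenase that removes a methyl group of the ring together with other enzymes, was at 7.63, 7.87 and 7.68, against 8.19, 8.21 and 8.11 in lipofectamine arrays. It fell by 0.44 (SE 0.08, adjusted p = 0.00514 in limma), and the groups did not overlap.

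DHCR7 carries out the last reduction on the route to cholesterol. It was at 9.13, 9.53 and 9.26 with the siRNAs in that order, against 9.77, 9.84 and 9.73 in lipofectamine arrays, a change of −0.47 (SE 0.10, adjusted p = 0.0101 in limma). CYP51A1, the lanosterol demethylase, was at 8.40, 8.85 and 8.76, against 9.26, 9.14 and 9.20 in lipofectamine arrays. It changed by −0.53 (SE 0.12, adjusted p = 0.0106 in limma), and siFGFR3#35 was the lowest array for both genes. SQLE, the epoxidase that opens the way to the ring, fell by 0.39 (SE 0.11, adjusted p = 0.0229 in limma), with 68% of the lipofectamine level at siFGFR3#35, 90.1% at siFGFR3#36 and 72.8% at siFGFR3#3. SQLE did not pass without any 1 lipofectamine array or without siFGFR3#3 (adjusted p up to 0.0822).

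The remaining enzymes of this segment did not pass as lower. TM7SF2, a sterol reductase, was at 9.51, 9.29 and 9.37 with siFGFR3#35, siFGFR3#36 and siFGFR3#3, against 9.04, 9.05 and 8.995 in lipofectamine arrays. It was the member that rose, by 0.36 (SE 0.07, adjusted p = 0.00619 in limma), with every siFGFR3 array above every lipofectamine array. The lanosterol synthase LSS averaged 6.24 ± 0.11 in siFGFR3 cells and 6.25 ± 0.05 in lipofectamine cells (adjusted p = 0.922 in limma). The desaturase SC5D averaged 7.20 ± 0.07 and 7.05 ± 0.0044, with siFGFR3 arrays above lipofectamine arrays and an adjusted p of 0.0863 in limma. The demethylating oxidase MSMO1 averaged 11.30 ± 0.30 and 11.42 ± 0.03 (adjusted p = 0.463 in limma) and its groups overlapped.

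In the fatty acid branch the genes that fell were ACLY at its start and SCD, ELOVL6 and LPIN1 at later steps. ACSS2, also at the start, and the desaturases FADS1 and FADS2 did not pass. SCD, the desaturase that makes oleate, had the largest change of the members that passed. It was at 8.20, 8.80 and 8.26 with siFGFR3#35, siFGFR3#36 and siFGFR3#3, against 9.11, 9.21 and 9.04 in lipofectamine arrays. The siFGFR3#36 array lay close under the lipofectamine arrays and the others far below, and the change was −0.70 (SE 0.16, adjusted p = 0.011 in limma). LPIN1, a phosphatidate phosphatase of glycerolipid synthesis, was at 5.90, 6.10 and 6.14, against 6.49, 6.51 and 6.46 in lipofectamine arrays. It changed by −0.44 (SE 0.08, adjusted p = 0.00624 in limma) with no overlap.

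ELOVL6, which lengthens palmitate, was at 7.005, 6.98 and 6.86 with the siRNAs in that order, against 7.31, 7.24 and 7.25 in lipofectamine arrays. It changed by −0.32 (SE 0.07, adjusted p = 0.00934 in limma), most with siFGFR3#3, and leaving out lipofectamine replicate 1 ended the call (adjusted p = 0.0512). ACLY, which makes cytosolic acetyl-CoA from citrate and so feeds both branches, was at 8.57, 8.76 and 8.65, against 8.94, 9.02 and 8.92 in lipofectamine arrays. It changed by −0.30 (SE 0.07, adjusted p = 0.0125 in limma) and its adjusted p was 0.0611 without lipofectamine replicate 2.

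FASN, the fatty acid synthase, gave a dim row, at 3.57, 3.98 and 3.50 in siFGFR3 arrays and 3.88, 3.98 and 4.20 in lipofectamine arrays, and was not tested. The groups overlapped, and without the filter on dim rows its change was −0.34 (adjusted p = 0.108 in limma). ACACA, the carboxylase that makes malonyl-CoA, averaged 8.63 ± 0.11 in siFGFR3 cells and 8.76 ± 0.04 in lipofectamine cells (adjusted p = 0.167 in limma). The acetate-activating enzyme ACSS2 averaged 7.23 ± 0.06 and 7.10 ± 0.05 (adjusted p = 0.133), with siFGFR3 arrays above lipofectamine arrays. The front-end desaturases FADS1 and FADS2 differed by −0.37 and −0.22, which did not pass (adjusted p = 0.0946 and 0.144) and were at 102% and 101% of the lipofectamine level with siFGFR3#36. Without siFGFR3#36 both passed, at −0.57 and −0.33 (adjusted p = 0.000249 and 0.0103 in limma). Over all 12 alternatives each passed in 3, with adjusted p up to 0.237 for FADS1 and 0.35 for FADS2 in limma.

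Among the regulators the transcripts of the SREBPs themselves did not pass. SREBF1 was at 6.48, 6.83 and 6.93 with siFGFR3#35, siFGFR3#36 and siFGFR3#3, against 6.87, 6.78 and 6.86 in lipofectamine arrays. The groups overlapped, with siFGFR3#35 alone below, and the change was −0.09 (adjusted p = 0.543 in limma). SREBF2 was at 7.20, 7.52 and 7.07, against 7.03, 7.10 and 6.92 in lipofectamine arrays, a change of 0.25 (adjusted p = 0.135). Its siFGFR3#36 array was the highest, and the groups overlapped. INSIG1, which retains SCAP in the endoplasmic reticulum and is itself an SREBP target, was at 8.63, 9.44 and 9.29, against 9.39, 9.39 and 9.37. Only the siFGFR3#35 array stood far below, and the change over the 3 siRNAs was −0.27 (SE 0.19, adjusted p = 0.277 in limma). The sensor SCAP averaged 8.01 ± 0.06 in siFGFR3 cells and 7.93 ± 0.07 in lipofectamine cells, and INSIG2, the INSIG1 paralog, 8.26 ± 0.07 and 8.29 ± 0.07 (adjusted p = 0.368 and 0.742 in limma). STARD4, which moves cholesterol between membranes, was at 6.43, 7.02 and 6.61, against 7.28, 7.30 and 7.34 in lipofectamine arrays. It fell by 0.61 (SE 0.14, adjusted p = 0.0132 in limma) with no overlap, and its adjusted p was 0.0537 without lipofectamine replicate 3.

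**Figure D2:**
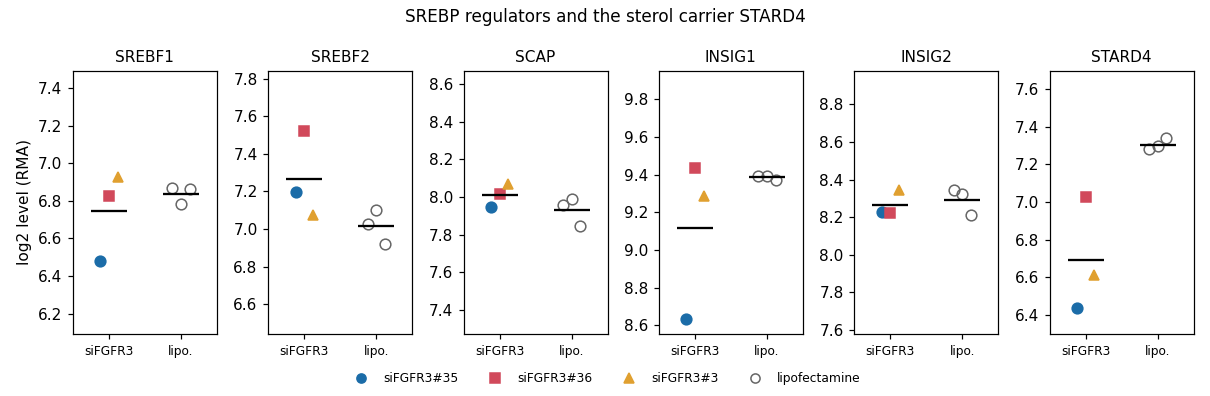
Log2 level (y axis) of 5 SREBP regulators and STARD4 in each array, siFGFR3 left and lipofectamine right, with a bar at each group mean (n = 3). STARD4 arrays do not overlap between the groups, while INSIG1 and SREBF1 stand apart with siFGFR3#35 and SREBF2 with siFGFR3#36.

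The siRNAs were then set against the lipofectamine arrays one at a time, with 4 levels in limma; since every siRNA has 1 array, the spread of the lipofectamine arrays is used for all. These p-values compare arrays, not conditions, and the 3 comparisons share the lipofectamine arrays. With siFGFR3#35, 12 sterol branch members and 6 fatty acid branch members were lower, with medians of −0.55 and −0.34, where 30.3% of all rows were lower. With siFGFR3#36, 11 and 5 were lower, with medians of −0.21 and −0.17, where 26.8% of all rows were lower. With siFGFR3#3, 11 and 7 were lower, with medians of −0.38 and −0.35, where 30.3% of all rows were lower. With each siRNA 2 sterol branch members were higher, and 1, 0 and 0 fatty acid branch members, against 30.4%, 22.7% and 29.9% of all rows. Of the 30 members tested, 15 (50%) were lower with each siRNA, where 17.7% of all rows tested were; these are the arrays of the comparison of groups, so this is no separate support for it.

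**Figure D3:**
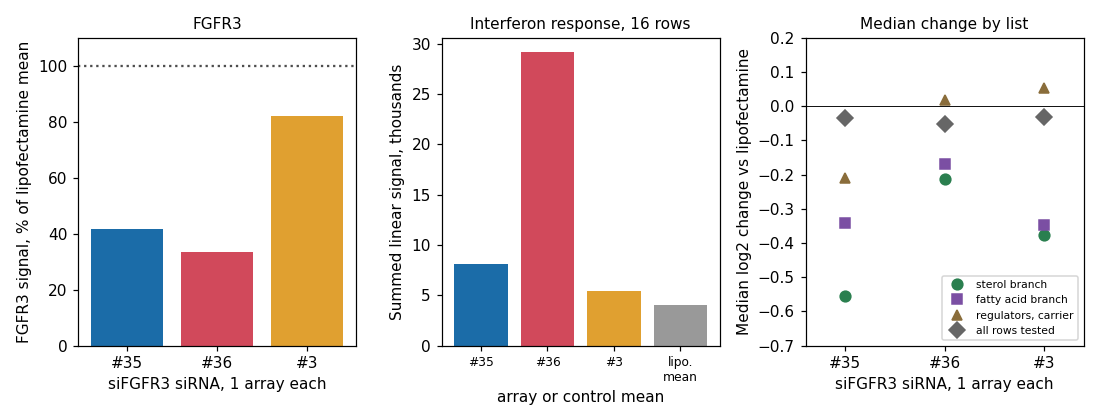
Left, FGFR3 signal with each siRNA as a percent of the lipofectamine mean (dotted line); middle, summed linear signal of 16 interferon response rows with each siRNA and as the lipofectamine mean; right, median log2 change of each gene list with each siRNA. The siFGFR3#36 array has the lowest FGFR3 signal, the highest interferon signal and the smallest fall of the sterol and fatty acid medians.

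Of the 15 members that fell, 12 fell least with siFGFR3#36 and 13 fell most with siFGFR3#35. Their median changes were −0.59, −0.29 and −0.44 with siFGFR3#35, siFGFR3#36 and siFGFR3#3. Among the siRNA arrays, 19 of the 30 members tested were highest with siFGFR3#36 and 20 were lowest with siFGFR3#35. Over all 13552 rows tested, 4523 were highest with siFGFR3#36 and 4216 lowest with siFGFR3#35. Each siRNA array was also set against the mean of the other siRNA arrays, which leaves the lipofectamine values out of the difference. All of these comparisons use the same siRNA arrays, so their counts are not independent of each other. With siFGFR3#36, 15 of the 30 members were higher and 3 lower than with the other siRNAs, where 14.5% and 17.7% of all rows were. The largest of these differences were in FADS1 (0.60, adjusted p = 2.26e-05), SCD (0.57, adjusted p = 0.000254) and HMGCS1 (0.52, adjusted p = 0.000116), named after their values were seen. With siFGFR3#35, 15 members were lower and 3 higher than with the other siRNAs, where 12% and 14.5% of all rows were. INSIG1, also named after its value was seen, was at −0.73 (adjusted p = 6.66e-06), and CYP51A1 and HMGCS1 were each at −0.40 (adjusted p = 0.000796 and 0.000644). With siFGFR3#3, 3 were lower and 4 higher, where 8.54% and 9.88% of all rows were. Without a variance trend in the model the sterol branch members lower with siFGFR3#35 than with the other siRNAs numbered 3 in place of 9.

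MSMO1 was the member that passed in both directions. It was below the lipofectamine mean by 0.15 and 0.41 with siFGFR3#35 and siFGFR3#36 and above it by 0.18 with siFGFR3#3 (adjusted p = 0.0104, 2.52e-05 and 0.00326 in limma with 4 levels). The regulators INSIG1, SREBF1 and SREBF2 each passed with 1 siRNA. INSIG1 was lower with siFGFR3#35, with a change of −0.755 (adjusted p = 3.15e-07), and stood at 0.05 and −0.10 with siFGFR3#36 and siFGFR3#3 (adjusted p = 0.362 and 0.0645). SREBF1 was lower with siFGFR3#35, with a change of −0.36 (adjusted p = 0.00109), and SREBF2 was higher with siFGFR3#36, by 0.50 (adjusted p = 0.000362). The lower SREBF1 and INSIG1 values were on the array with the largest sterol branch change, and the higher SREBF2 on the one with the smallest. SREBF1 was highest with siFGFR3#3, at 6.93, where the fatty acid branch median was −0.35, beside −0.34 with siFGFR3#35. Each siRNA has 1 array, and a link between these values was not tested.

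FGFR3 was lowest with siFGFR3#36, whose sterol and fatty acid falls were smallest, and highest with siFGFR3#3. In the sterol branch the siFGFR3#3 median lay between those of siFGFR3#36 and siFGFR3#35. In the fatty acid branch the medians were −0.34, −0.17 and −0.35 with siFGFR3#35, siFGFR3#36 and siFGFR3#3. Each siRNA has 1 array, and the part of FGFR3 loss in these differences was not tested. Interferon response genes moved with the siRNAs as well. Of 16 listed and tested interferon response rows, 9 rose and 0 fell in the comparison of groups in limma, where 20.6% and 24.6% of all rows did. At an unadjusted p under 0.05 it was 12 and 0, where 3332 and 4055 of the 13552 rows tested rose and fell. The summed linear signal of the 16 interferon rows was 8125, 29139 and 5459 in the siFGFR3#35, siFGFR3#36 and siFGFR3#3 arrays. It was 3963 to 4110 in lipofectamine arrays. The part of the interferon response in the members' differences was not tested. CH25H, which makes a sterol that blocks SREBP processing, gave a dim row that was left out of the tests. It was at 2.63 ± 0.18 in siFGFR3 cells and 2.66 ± 0.13 in lipofectamine cells (SD, n = 3 each). The part of CH25H in the members' differences was not tested.

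Other genes of the pathway were read from lists written from general knowledge, but with earlier results of these data known. Their shares are therefore no independent support. Of 11 tested genes linked to SREBPs but not among the members, 6 fell and 0 rose in limma, also 6 and 0 at an unadjusted p under 0.05, with a median of −0.25. Their share lower was 54.5%, against 24.6% of all rows tested, and at an unadjusted p 4055 of 13552 rows were lower. The malic enzyme ME1, a source of NADPH for lipid synthesis, was at 8.31 ± 0.02 in siFGFR3 cells and 8.68 ± 0.05 in lipofectamine cells and fell by 0.37 (adjusted p = 0.00276 in limma). The pantothenate kinase PANK3 fell by 0.34 (adjusted p = 0.00948), but its adjusted p was 0.0507 without lipofectamine replicate 1. Of 8 genes that process or degrade SREBP pathway proteins, 3 fell (37.5%) and 2 rose (25%), near the 24.6% and 20.6% of all rows tested. MBTPS1, the site-1 protease that makes the first cut of SREBPs, averaged 7.73 ± 0.08 and 7.19 ± 0.07 and rose by 0.55 (SE 0.07, adjusted p = 0.00173 in limma). UBE2G2, a ubiquitin-conjugating enzyme of the endoplasmic reticulum, fell by 0.50 (SE 0.06, adjusted p = 0.00159).

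Of 11 genes that use mevalonate products for other ends, 4 fell (36.4%) and 2 rose (18.2%), near the 24.6% and 20.6% of all rows tested, with a median of −0.14. PDSS1, which makes the side chain of ubiquinone, was at 5.82 ± 0.18 in siFGFR3 cells and 6.81 ± 0.08 in lipofectamine cells and fell by 0.99 (SE 0.10, adjusted p = 0.000914 in limma). RABGGTB, a subunit of the transferase that prenylates RAB proteins, averaged 7.16 ± 0.11 and 8.04 ± 0.03 and fell by 0.88 (SE 0.07, adjusted p = 0.000541). These changes were larger than that of any member. Of 14 genes of cholesterol traffic and efflux, 4 rose (28.6%) and 3 fell (21.4%), near the 20.6% and 24.6% of all rows tested, with a median of 0.25. SMPDL3A, a phosphodiesterase that liver X receptors induce, rose by 0.88 (SE 0.08, adjusted p = 0.000567), and NR1H3, which encodes liver X receptor alpha, fell by 0.47 (SE 0.07, adjusted p = 0.00222 in limma).

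Fatty acid oxidation is the opposing pathway. Of its 11 tested genes 5 rose (45.5%) and 0 fell in limma, where 20.6% and 24.6% of all rows did. At an unadjusted p under 0.05 it was 7 and 1, where 3332 and 4055 of the 13552 rows tested rose and fell. The list's median was 0.20. The gene lower at an unadjusted p was CPT1A, at 4.83 ± 0.07 in siFGFR3 cells and 5.03 ± 0.06 in lipofectamine cells. Its siFGFR3 arrays all lay below the lipofectamine arrays, and its change of −0.21 did not pass (adjusted p = 0.0559 in limma). PPARA, a nuclear receptor that induces oxidation genes, was at 5.30 ± 0.26 in siFGFR3 cells and 4.39 ± 0.02 in lipofectamine cells and rose by 0.91 (SE 0.13, adjusted p = 0.00216 in limma). HADHB, a subunit of the mitochondrial trifunctional protein, averaged 10.64 ± 0.16 and 10.19 ± 0.01 and rose by 0.45 (SE 0.08, adjusted p = 0.00477).

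**Figure D4:**
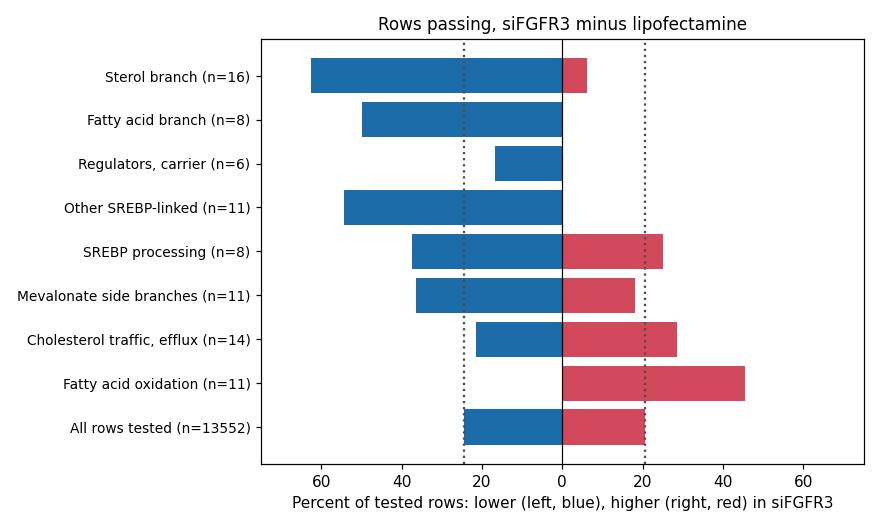
Percent of the tested rows of each list that were lower (blue, left) or higher (red, right) in siFGFR3 cells at an adjusted p under 0.05, with the same over all rows tested at the bottom and as dotted lines. The sterol branch reached 62.5% lower, and fatty acid oxidation had 45.5% higher and 0% lower.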

How the data were processed

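RNA of 6 UMUC-14 samples was hybridised to Affymetrix U133 Plus 2.0 arrays. The deposited values are log2 levels per Entrez gene, made by the authors; the submitters' processing notes name RMA and affy. Versions are not given in the sources used here. RMA makes the arrays' distributions alike, which reduces any shift shared by most genes, and array medians ran from 5.41 to 5.52. The number of arrays, 3 per group, limits the precision, and an exact permutation test of 3 against 3 cannot go below p = 0.1.

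Of 19361 rows, 18669 were named through the platform annotation and RefSeq gene IDs and 692 were not. Rows in the dimmest 30% by mean over all arrays were left out (5809). The other 13552 were fitted with limma 3.58.1 in R 4.3.3 (lmFit, eBayes with a variance trend, two-sided, Benjamini-Hochberg over all rows tested, threshold 0.05). A second model had 4 levels, lipofectamine and each siRNA. The script was tested on simulated data. Arrays correlated at 0.9848 to 0.991 within siFGFR3, 0.9978 to 0.9984 within lipofectamine and 0.9614 to 0.9772 between groups.

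Every member is named. Array values are given for the 12 passing members with the smallest adjusted p and for SREBF1, SREBF2, INSIG1, FASN and SCD. Of each of the other pathway lists, the 2 genes with the smallest adjusted p are named, and CPT1A, CH25H and SOAT1 are named besides. Marker lists are given as sums and counts, with GATA3, EPCAM, KRT5, PTPRC and CD68 named after their values were seen. The members and lists were chosen with earlier results of these data known. Alternatives were other filters, centring, no variance trend, array weights, the 4-level spread, leaving out each array and a stricter sterol element.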

Additional observations from a re-analysis of the deposited data

Results flagged for a closer look

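MSMO1, the sterol methyl oxidase, differed between the siRNAs, and its siFGFR3#36 array was at −0.43 against the average of siFGFR3#35 and siFGFR3#3 (adjusted p = 8.42e-05 in limma with 4 levels). SOAT1, which esterifies cholesterol for storage and belongs to the traffic list, was at 7.49, 7.30 and 6.36 with siFGFR3#35, siFGFR3#36 and siFGFR3#3, against 6.69, 6.61 and 6.73 in lipofectamine arrays. It was above the lipofectamine arrays with siFGFR3#35 and siFGFR3#36 and below with siFGFR3#3, which was at −1.04 relative to the other siRNAs (adjusted p = 1.58e-05 in the same model). Of the 30 members tested, 15 were higher and 3 lower with siFGFR3#36 than with the mean of the other siRNAs, where 14.5% and 17.7% of all rows were. Each siRNA has 1 array, so these are differences between arrays.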

How the results depend on the processing

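Over 12 alternatives to the comparison of groups no member that had passed turned its direction, and ACAT2, FDPS, CYP51A1, TM7SF2, NSDHL, EBP, DHCR7, SCD and LPIN1 passed in all 12. Leaving out 1 array moved the rows lower between 1964 and 3680 and those higher between 1672 and 3592, with the low counts without a lipofectamine array. Over the same settings 6 to 11 sterol branch members were lower and 1 to 2 higher, 0 to 1 regulators were lower, and 0 to 1 fatty acid branch members were higher with siFGFR3#35. With the spread taken from the lipofectamine arrays alone, 4966 rows were lower and 4407 higher over all rows, in place of 3329 and 2789. In that setting 3 sterol branch members were higher, 7 fatty acid branch members were lower and 1 higher, and 2 regulators were lower and 1 higher. Without a variance trend, 3 fatty acid branch members were lower with siFGFR3#36 than in lipofectamine arrays. Against the other siRNAs, that model gave siFGFR3#35 3 sterol branch members lower and 0 higher, 1 fatty acid branch member lower and 0 higher, and gave siFGFR3#3 0 fatty acid branch members lower. With no filter, 0 fatty acid branch members were higher with siFGFR3#35 and 1 lower with siFGFR3#3 than with the other siRNAs. With arrays centred on their medians, 0 fatty acid branch members were higher with siFGFR3#35, against lipofectamine or the other siRNAs, and 1 sterol branch member was higher than with the other siRNAs. The cause of these shifts was not tested. A stricter form of the sterol element was found for 1 of 28 members and 0.0586% of all genes. No paired analysis was possible because each siFGFR3 array carries its own siRNA and the labels give the groups no shared replicate numbers. Dim rows such as FASN limit what can be said of those genes.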
